A study of Mus musculus with 4 samples.

Results

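In RNA sequencing of polymorphonuclear myeloid-derived suppressor cells (PMN-MDSCs), 39 of 18751 gene names were read in 1 genotype and nearly absent from the other. They were chosen by their counts: 21 names had at most 2 counts summed over the CD300ld knockout (KO) libraries and at least 6 in each wild-type (WT) library, and 18 had at most 2 counts summed over the WT libraries and at least 6 in each KO library. Immunoglobulin, ribosomal protein, MHC, histone, microRNA and small nucleolar names were left out, as were U RNAs such as U6. The contrast between the genotypes thus chose the members, and their counts are given as a description with no test. An all-or-none pattern in the strict sense was less common: 5 names had no count in either KO library and 3 had none in either WT library, while the other names kept 1 or 2 counts in the lower genotype.

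The 2 KO libraries came from CD300ld KO mice and the 2 WT libraries from wild-type mice, labelled C57BL/6 and 8 weeks old in both genotypes. All mice carried subcutaneous B16-F10, a transplantable mouse melanoma line, and were killed 15 days after inoculation. The cells, labelled neutrophils, were separated on an AutoMACS with a mouse neutrophil enrichment kit, from an organ that the labels do not name. The allele of the knockout, and whether each library is 1 animal, are not given either, and p-values then speak only of the spread among the libraries at hand.

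PMN-MDSCs are immature or altered neutrophils that dampen T cell responses to a tumour, and CD300ld is a receptor of the CD300 family carried by myeloid cells. Neutrophils are short-lived and hold little RNA, and a preparation enriched for them can carry RNA of other blood cells. A gene read in only 1 genotype can be off in the other, rare there, or expressed by cells that are fewer there. In bulk RNA, fewer cells of a type and less RNA per cell cannot be told apart.

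The libraries were shallow, with 830931 and 835510 counts in the KO libraries and 674599 and 920839 in the WT libraries. No count of a gene in a library still allows a level of up to 3 counts, or 3.26 to 4.45 CPM, the count scaled to the library's total. Cd300ld itself had 2 and 3 counts in the KO libraries, against 0 and 11 in the WT libraries, so at this depth the targeted gene did not separate the genotypes and did not check the labels. Across the 7685 genes tested with edgeR's quasi-likelihood test and Benjamini-Hochberg adjustment, 2.71% were called higher and 3.27% lower in KO at an adjusted p under 0.05. Of 16 tested markers of mature neutrophils 11 were lower and none higher in KO, and the 17 markers in the table summed to 5075 and 4944 CPM in the KO libraries, against 31846 and 34460 CPM in the WT libraries. Monocyte and macrophage markers summed to 693 and 898 CPM in KO, against 1696 and 1843 CPM in WT, with 6 of 16 tested called lower. Erythroid markers took 208120 and 196510 CPM in KO, against 152640 and 162950 CPM in WT, with 10 of 15 called higher. No marker of these 3 lists was at 0 in every library, and no member belongs to any marker list used. The part of these shifts in the members' values was not tested.

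Among the names nearly absent in KO, those with the most WT counts differ in their known functions. Gpr160, an orphan G protein-coupled receptor, had 1 and 0 counts in the KO libraries, against 19 and 28 in the WT libraries. As a ratio of summed counts per library total this is 49.1-fold lower in KO, with an exact 95% Poisson interval of 8.39 to 1980. The interval covers counting error only, and its upper end is wide because it rests on 1 KO count. The rule used the same counts, so every such interval of a member excludes a ratio of 1 by the choice itself. These intervals describe the counts and are no test of a difference. Acpl2 (now Pxylp1), a phosphatase that acts on the linker of glycosaminoglycan chains, had 1 and 1 counts in KO, against 12 and 33 in WT, or 23.5-fold lower (6.14 to 200). Ndrg1, a gene induced by hypoxia and stress in many cells, had 2 and 0 counts in KO, against 15 and 23 in WT, or 19.8-fold lower (5.13 to 170). By the rule, each WT library of these 3 genes lies above each KO library. The WT counts of Acpl2 differed widely between the 2 libraries.

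Ocrl, an inositol polyphosphate 5-phosphatase mutated in human Lowe syndrome, had 1 count in each KO library, against 12 and 18 in WT, or 15.7-fold lower (3.98 to 135). C1rl, a serine protease related to complement C1r, had no count in either KO library, against 16 and 12 in WT. With a floor of 3 counts over the KO libraries it was at least 9.75-fold lower. The WT counts enter this fold without their counting error, so it is not a limit like those of the intervals. C1rl and Ocrl, with Gpr160, Acpl2, Ndrg1 and the antisense transcript Gm15915, made up the 6 names with at least 10 counts in each WT library. Tmtc4, an endoplasmic reticulum protein of O-mannosylation, had 1 and 1 counts in KO, against 9 and 19 in WT. Fam64a (now Pimreg), a mitotic regulator of dividing cells, had none in KO, against 8 and 19 in WT, or at least 9.40-fold lower.

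Further names nearly absent in KO are those of genes for mitochondrial proteins. Gcat, the mitochondrial glycine C-acetyltransferase of threonine breakdown, had no KO count, against 7 and 14 in WT, or at least 7.31-fold lower. Lyrm7, an assembly factor of respiratory complex III, had 0 and 1 counts in KO, against 6 and 9 in WT. Slc25a16, a carrier of the inner membrane, had 1 and 1 in KO and 7 and 6 in WT. Trmt61b, named for a mitochondrial tRNA methyltransferase but classed as antisense in GENCODE M21, had 1 and 0 in KO and 6 and 7 in WT. For these 4 genes the lower WT library held only 6 or 7 counts, at or just above the limit of the rule. No list of mitochondrial genes was examined beyond these 4 names.

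Secreted proteins and signalling molecules were also among the names nearly absent in KO. Il1rn, the interleukin 1 receptor antagonist, had 1 and 1 counts in KO, against 8 and 6 in WT, or 7.31-fold lower (1.68 to 66.3). Spp1, the secreted phosphoprotein osteopontin made by macrophages among other cells, had 1 and 1 in KO, against 6 and 6 in WT, or 6.27-fold lower (1.40 to 57.7). Both intervals end near 1 at their lower side, so the depth leaves the size of these differences loosely fixed. Mapkbp1, a scaffold of JNK signalling, had 1 and 0 counts in KO, against 6 and 13 in WT. Rnf144b, an E3 ubiquitin ligase, had none in KO and 6 and 8 in WT, and Prss16, a serine protease known from the thymus, had 0 and 2 in KO and 7 and 7 in WT.

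The remaining names nearly absent in KO carry clone or predicted-gene names in the table. Gm15915, annotated as antisense to Ntn4, had 1 and 0 counts in KO, against 18 and 26 in WT, or 46.0-fold lower (7.83 to 1856). Its sense partner Ntn4, which encodes a netrin, had 0 and 1 counts in KO, against no count in WT. Which strand the reads came from is not known. 2510003E04Rik (now Kifbp), which encodes a kinesin-binding protein, had 1 and 1 in KO and 7 and 16 in WT. For A430033K04Rik the counts were 0 and 1 in KO and 6 and 8 in WT, and for 3110001I22Rik 2 and 0 in KO and 7 and 7 in WT.

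**Figure D1:**
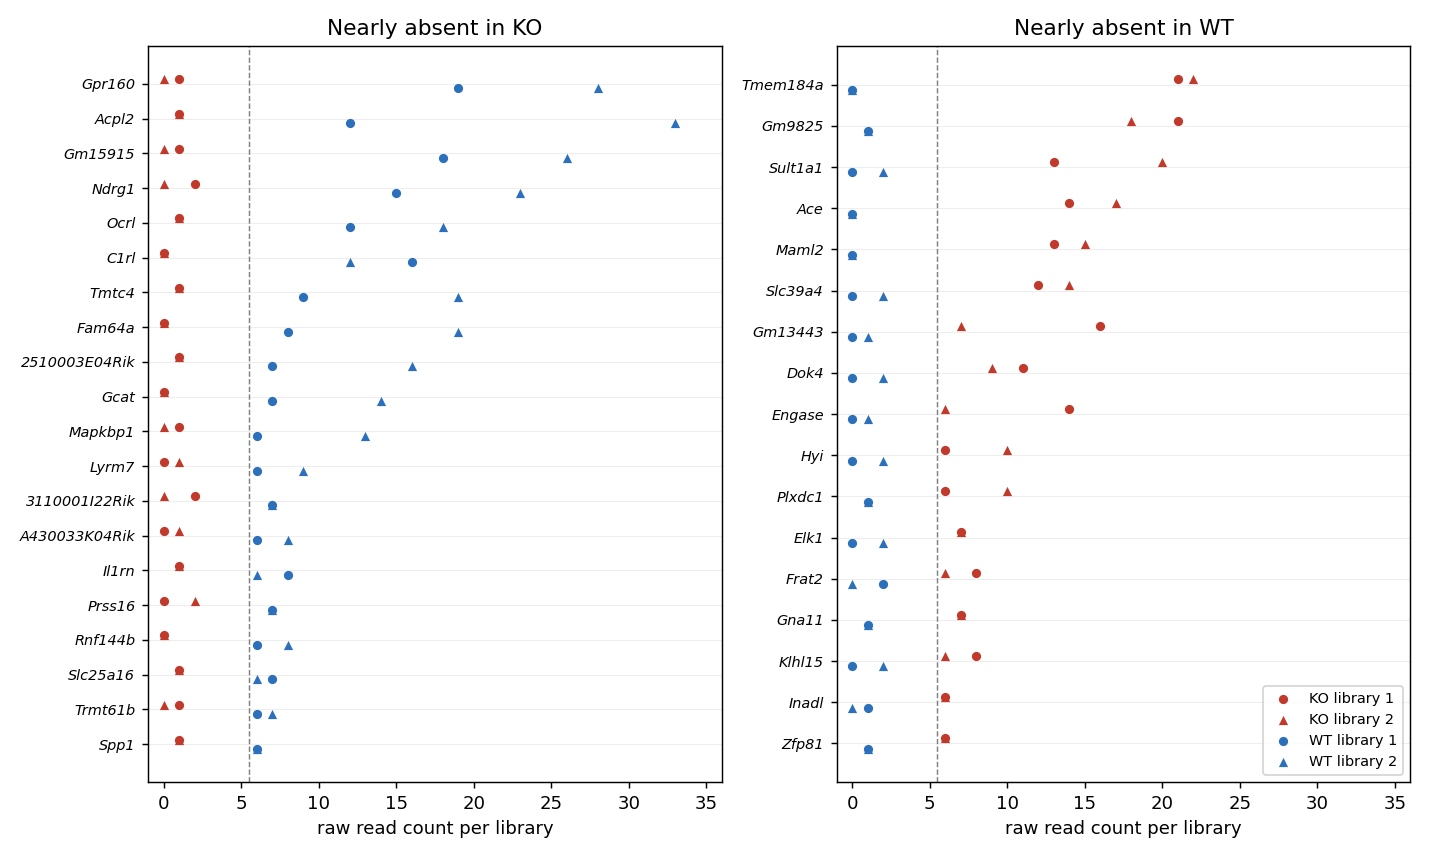
Raw read counts of 37 of the 39 members in each of the 4 libraries, 1 row per gene, with KO libraries and WT libraries in separate colours; the left panel holds genes nearly absent in KO and the right panel genes nearly absent in WT. The gap between the genotypes is wide for Gpr160 and Tmem184a and narrow for the many genes with 6 or 7 counts in the lower library of the genotype that has them.

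In the opposite direction, Tmem184a had the highest counts. This gene of a multipass membrane protein had 21 and 22 counts in the KO libraries and none in either WT library, or at least 13.7-fold higher in KO with a floor of 3 counts over the WT libraries. Ace, the angiotensin-converting enzyme, had 14 and 17 in KO and none in WT, or at least 9.89-fold higher. Maml2, a coactivator of Notch target genes, had 13 and 15 in KO and none in WT, or at least 8.94-fold higher. In these 3 genes the KO libraries were close to each other and every WT library was empty.

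Enzymes of metabolism formed part of the names nearly absent in WT. Sult1a1, a phenol sulfotransferase, had 13 and 20 counts in KO, against 0 and 2 in WT, or 15.8-fold higher (4.04 to 136). Engase, which trims free N-glycans in the cytosol, had 14 and 6 in KO and 0 and 1 in WT. Hyi, a hydroxypyruvate isomerase, had 6 and 10 in KO and 0 and 2 in WT. GENCODE annotates Hyi as a polymorphic pseudogene, a class used for genes that encode a protein in some strains or individuals but not in the reference.

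Membrane and signalling genes made up most of the rest. Slc39a4, the zinc importer ZIP4, had 12 and 14 counts in KO, against 0 and 2 in WT, or 12.4-fold higher (3.12 to 108). Dok4, a docking protein of tyrosine kinases, had 11 and 9 in KO and 0 and 2 in WT. Plxdc1, a plexin domain protein, had 6 and 10 in KO and 1 and 1 in WT. For Slc39a4 and Dok4 the WT counts came from the deeper WT library alone. Gna11, the G protein subunit alpha 11, had 7 and 7 in KO and 1 and 1 in WT. Frat2, which binds GSK3 in the Wnt pathway, had 8 and 6 in KO and 2 and 0 in WT. Elk1, an ETS factor that acts with serum response factor, had 7 and 7 in KO and 0 and 2 in WT.

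There remain 3 genes with low counts. Klhl15, a cullin 3 adaptor, had 8 and 6 in KO and 0 and 2 in WT. Inadl (now Patj), a tight junction scaffold, had 6 and 6 in KO and 1 and 0 in WT, and the zinc finger gene Zfp81 had 6 and 6 in KO and 1 and 1 in WT. Their lower KO library lay at the limit of 6 counts.

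As a group, the 21 names nearly absent in KO summed to 15 and 11 counts in the KO libraries, against 195 and 291 in the WT libraries. Their WT counts ran from 12 to 47 per name, with a median of 19 and no single count above 33. The 18 names nearly absent in WT summed to 203 and 198 counts in the KO libraries, against 7 and 19 in the WT libraries, and their KO counts ran from 12 to 43 per name with a median of 20. The rule asks for counts in both libraries of the genotype that has a gene. Within that limit, the second WT library gave 42.9% to 73.3%, with a median of 59.1%, of the WT counts of a name nearly absent in KO, where it held 57.7% of all WT counts. The second KO library gave 30% to 62.5%, with a median of 50%, of the KO counts of a name nearly absent in WT, where it held 50.1% of all KO counts.

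Such names were rare. The 21 names were 0.274% of the 7677 names with at least 6 counts in each WT library, and the 18 names were 0.233% of the 7741 with at least 6 in each KO library. Since the rule used the same counts, these shares only describe the selection. Of 3202 names with the same range of WT counts as the first set, 12 to 47, the median summed KO count was 29. Of 2902 names with 12 to 43 KO counts, the median summed WT count was 26. Only 14 of the 39, 7 of each set, passed the filter on low counts of the fit, and their passing rested on the genotype that has them.

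**Figure D2:**
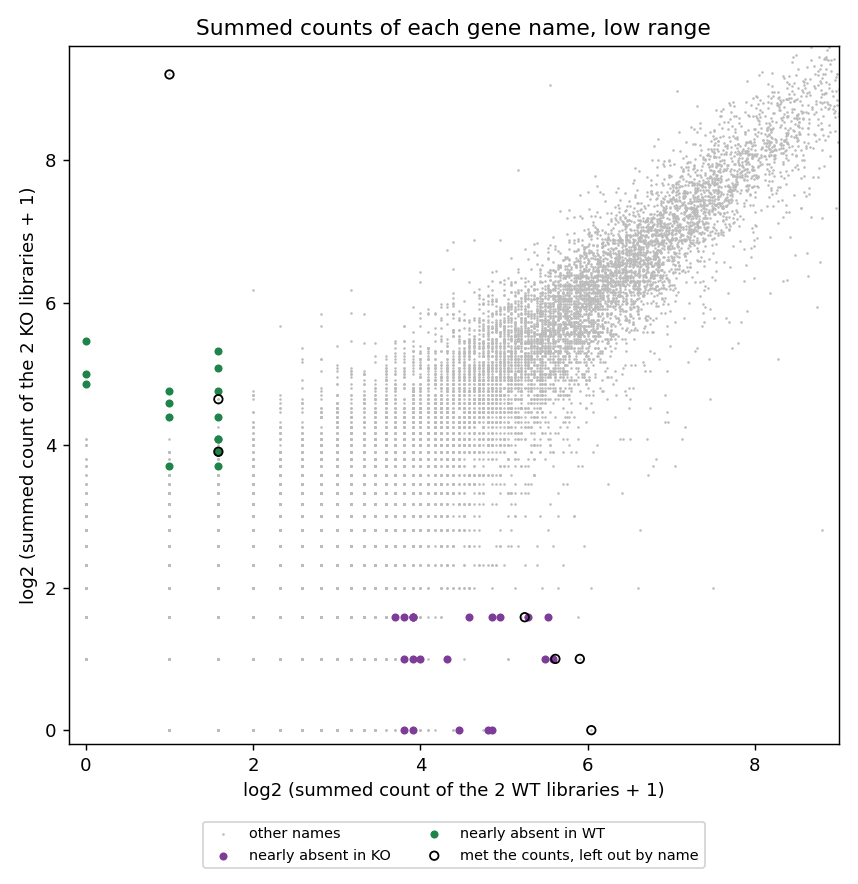
Summed count of each gene name over the 2 WT libraries (horizontal axis) and the 2 KO libraries (vertical axis), both as log2 of the count plus 1, cut at the low range. Coloured points are the 39 members, open circles the 7 names that met the counts but were left out by name, and the members lie along the bottom and left edges apart from the diagonal cloud.

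Just outside the rule the values were similar in kind. With a summed KO count of 3, 12 further names had at least 6 counts in each WT library, among them Gca, the calcium-binding protein grancalcin, with 2 and 1 in KO and 22 and 43 in WT, and the macrophage receptor Siglec1, with 3 and 0 in KO and 17 and 26 in WT. With 5 counts in the lower WT library, 24 names were missed, such as Tuba8 with 0 and 0 in KO and 5 and 21 in WT, and the interferon-induced chemokine Cxcl10 with 0 and 0 in KO and 5 and 9 in WT. In the other direction, 16 names had a summed WT count of 3, such as Gm15487 with 33 and 38 in KO and 0 and 3 in WT. Another 21 had 5 counts in the lower KO library, such as the acyl-CoA thioesterase Acot1 with 5 and 18 in KO and 1 and 0 in WT. The edge of each set thus falls inside a run of like values rather than at a gap.

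Among the 7 names left out by their first letters, the highest count was that of H2-Ea-ps. H2-Ea-ps, the MHC class II E alpha gene that C57BL/6 mice do not express, had 274 and 313 counts in KO, against 0 and 1 in WT. Of the other genes listed as differing among inbred strains, Nnt had 19 and 41 in KO and 17 and 44 in WT, Casp4 9 and 4 in KO and 5 and 10 in WT, and Gbp1 0 and 2 in each genotype, so these overlapped. Glo1, the fourth, had 169 and 149 in KO, against 83 and 122 in WT. It was not called (log2 fold change 0.58 ± 0.20, edgeR adjusted p 0.103). The genetic background of the mice beyond their C57BL/6 label was not tested, and neither was its part in the members' values. Immunoglobulin names were nearly absent in KO in 4 cases, such as Ighg2c with 0 and 1 in KO and 21 and 38 in WT. Nearly absent in WT were also Igkj5, with 6 and 8 in KO and 0 and 2 in WT, and the histone gene Hist1h2bm, with 15 and 9 in KO and 0 and 2 in WT.

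The members lie on 17 chromosomes, and 34 of the 39 are annotated as protein coding. Gm9825 and Gm13443, both nearly absent in WT, are processed pseudogenes, intronless copies of a spliced transcript, or 11.1% of 18 names against 1.81% of 7665 annotated names with at least 6 counts in each KO library. Gm15915 and Trmt61b, nearly absent in KO, carry the antisense class, or 9.52% of 21 names against 0.158% of 7604. These shares describe a handful of names and were not tested. Gm9825 had 21 and 18 counts in KO, against 1 and 1 in WT, or 18.7-fold higher (4.83 to 160). Gm13443 had 16 and 7 in KO, against 0 and 1 in WT, or 22-fold higher (3.58 to 907).

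Both pseudogenes are near-identical to a gene elsewhere in the genome, which matters for where a read is counted. Over the 843 bases of its transcript, Gm9825 on chromosome 6 differs at 5 positions from the coding sequence of Rnps1, an RNA-binding splicing protein encoded on chromosome 17, with an unbroken identical run of 228 bases. Over 555 bases, Gm13443 on chromosome 2 differs at 3 positions from Glo1, the glyoxalase 1 gene of chromosome 17, with an identical run of 330 bases. The 100-base windows of Gm9825 and Rnps1 below, of GENCODE M21 transcripts on GRCm38 read 5′ to 3′ along the transcript, are shown because they hold 2 of their differences, in capitals, and so places where a read could tell the copies apart.
Gm9825: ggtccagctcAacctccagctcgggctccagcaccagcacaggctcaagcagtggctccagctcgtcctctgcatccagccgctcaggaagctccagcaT
Rnps1: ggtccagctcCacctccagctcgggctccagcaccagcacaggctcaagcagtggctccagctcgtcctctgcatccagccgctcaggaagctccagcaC

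Neither of the genes that these pseudogenes copy passed the test. Rnps1 had 47 and 30 counts in KO, against 39 and 58 in WT, with a log2 fold change of -0.39 ± 0.32 (SE) and an edgeR adjusted p of 0.589. Glo1 had 169 and 149 counts in KO, against 83 and 122 in WT, with a log2 fold change of 0.58 ± 0.20 and an edgeR adjusted p of 0.103. Of the counts given to Gm9825 and Rnps1 together, Gm9825 took 30.9% and 37.5% in the KO libraries, against 2.5% and 1.69% in the WT libraries. Of those given to Gm13443 and Glo1, Gm13443 took 8.65% and 4.49% in the KO libraries, against none and 0.813% in the WT libraries. The counts of both pseudogenes are uncertain, since how reads that match several places were treated is not given in the sources used here. The assignment of reads between the copies was not tested.

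In the annotation 25 members overlap another gene, and 10 overlap a gene of the table, 7 of them on the opposite strand and 3 on the same strand. Whether reads were shared between them was not tested, and the strand setting is not given. Tmem184a overlaps Mafk, a small Maf transcription factor on the opposite strand with 124 and 117 counts in KO, against 76 and 109 in WT (log2 fold change 0.32 ± 0.21, edgeR adjusted p 0.446). Sult1a1 overlaps Ccdc101, with 28 and 31 in KO, against 6 and 26 in WT (0.87 ± 0.49, edgeR adjusted p 0.376). Dok4 overlaps Polr2c, an RNA polymerase II subunit, with 47 and 76 in KO, against 39 and 64 in WT (0.20 ± 0.29, edgeR adjusted p 0.791). None of these 3 partners passed the test, and without the strand reads of the overlapping parts cannot be told apart.

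Members were close to another member in few places. The closest pair was 2510003E04Rik and Slc25a16 on chromosome 10, both nearly absent in KO, with 3 tested genes between them in the gene order of the annotation. Those 3, Ddx21, Ddx50 and Ccar1, were not called and had a median log2 fold change of -0.54. A430033K04Rik and Tmem184a lie 9 tested genes apart and differ in opposite directions. Chromosome 11, which carries Cd300ld, held 5 members, of which Ace lies 34 tested genes before Cd300ld and Engase 58 after it.

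The windows around these places were chosen after the values were seen. Of the 92 tested genes between Ace and Engase, 3 were called higher in KO and none lower, with a median log2 fold change of 0.18. Those 3 stand beside 2.71% called higher and 3.27% called lower over all genes, and a difference from these shares was not tested. They were 6030468B19Rik with 30 and 47 counts in KO, against 6 and 9 in WT (log2 fold change 2.28 ± 0.48, edgeR adjusted p 0.00739), 2210020M01Rik (1.31 ± 0.34, edgeR adjusted p 0.0286) and Tmc6, a transmembrane channel-like gene (0.80 ± 0.19, edgeR adjusted p 0.016). Each lost its call when 1 library was left out. For 6030468B19Rik this was without KO replicate 2 (log2 fold change 1.95), and for Tmc6 without KO replicate 2 (0.78) or WT replicate 2 (0.66). The call of 2210020M01Rik was lost without any 1 of the 4 libraries (1.28 to 1.32). With all 4 libraries, DESeq2 did not call Tmc6 (DESeq2 adjusted p 0.070) or 2210020M01Rik (0.168), while limma-voom called all 3. On chromosome 17, of 32 tested genes between Zfp81 and H2-Ea-ps none was called higher and 3 were called lower in KO. These were the class I gene H2-K1, the leukocyte myosin Myo1f and the ribosomal protein gene Rps18, with log2 fold changes of -0.80, -1.37 and -0.85. In the longer window between Rnps1 and H2-Ea-ps, which holds these 3, 4 of 131 tested genes were called higher and 4 lower.

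Genes beside the members were called at a share near that of all genes. Up to 5 tested genes on each side of the names nearly absent in KO gave 198 genes, of which 5 were called higher and 5 lower, or 5.05%. The neighbours of names nearly absent in WT were 180 genes, of which 1 was called higher and 7 lower, or 4.44%. Both shares stand beside the 5.97% of all genes, which includes the 14 members that were tested. The difference between these shares was not tested. The median log2 fold change was -0.04 for both sets of neighbours, against 0.0025 over all genes.

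Some neighbours differed by more than the spread between replicates. Lta4h, the hydrolase that makes leukotriene B4 and the tested gene next to Gm15915, fell to 63 and 72 counts in KO, against 256 and 384 in WT (log2 fold change -2.30 ± 0.18, edgeR adjusted p 6.13e-07). Clec4a2, a C-type lectin near C1rl, fell to 9 and 7 in KO, against 39 and 51 in WT (-2.54 ± 0.43, edgeR adjusted p 0.00165). Xaf1, an interferon-induced gene near Fam64a, fell to 1 and 5 in KO, against 51 and 47 in WT (-4.07 ± 0.57, edgeR adjusted p 0.000278, and 0.0643 with limma-voom). Mmp8, the neutrophil collagenase near Maml2, fell to 76 and 70 in KO, against 172 and 233 in WT (-1.53 ± 0.19, edgeR adjusted p 0.000112). Mmp8 lies 5 tested genes before Maml2, which is nearly absent in WT, so the neighbour and the member differed in opposite directions.

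The same held for Gpr97, Gsn, Lasp1 and Myo1f. Gpr97, an adhesion receptor of granulocytes near Dok4, fell to 8 and 8 counts in KO, against 26 and 59 in WT (log2 fold change -2.41 ± 0.47, edgeR adjusted p 0.00412, and 0.0689 without WT replicate 2). Myo1f, near Zfp81, fell to 48 and 51 in KO, against 99 and 148 in WT (-1.37 ± 0.23, edgeR adjusted p 0.00129). Gsn, the actin-severing protein gelsolin near Gm13443, and Lasp1, an actin-binding protein near Plxdc1, had log2 fold changes of -1.34 ± 0.23 and -1.27 ± 0.27 and were also lower in KO.

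Differences in both directions were seen beside names nearly absent in KO. Nmnat3, an enzyme of NAD synthesis near Acpl2, rose to 59 and 57 counts in KO, against 7 and 23 in WT (log2 fold change 1.91 ± 0.39, edgeR adjusted p 0.00631). Lrrc8b, a subunit of volume-regulated anion channels near Spp1, rose to 48 and 40 in KO, against 10 and 10 in WT (2.05 ± 0.43, edgeR adjusted p 0.00706). Lgals1, the lectin galectin 1 near Gcat, fell to 30 and 32 in KO, against 60 and 105 in WT (-1.45 ± 0.28, edgeR adjusted p 0.00404). The libraries of the genotypes did not overlap in these 3 genes, but the share of all genes with no overlap is not given. The lack of overlap thus adds nothing to the calls.

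The other called neighbours each lost the call in at least 1 leave-out. Srgn, the granule proteoglycan serglycin, lost it without WT replicate 2 (edgeR adjusted p 0.165), and Urod, of haem synthesis, without KO replicate 1 (0.113). Bcorl1 lost it without KO replicate 2 (0.150) or WT replicate 2 (0.145), and Dohh without KO replicate 2 (0.234) or WT replicate 1 (0.215). Dek, Coro1a and Msn lost it in 3 or more of the 4 leave-outs. Across the leave-outs their log2 fold changes ran from 0.47 to 0.68, -0.52 to -0.39 and -0.59 to -0.50 in that order. With all 4 libraries, DESeq2 did not call Bcorl1 (DESeq2 adjusted p 0.169), Dohh (0.147), Dek (0.169), Coro1a (0.0581) or Msn (0.128), while limma-voom called each of them.

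**Figure D3:**
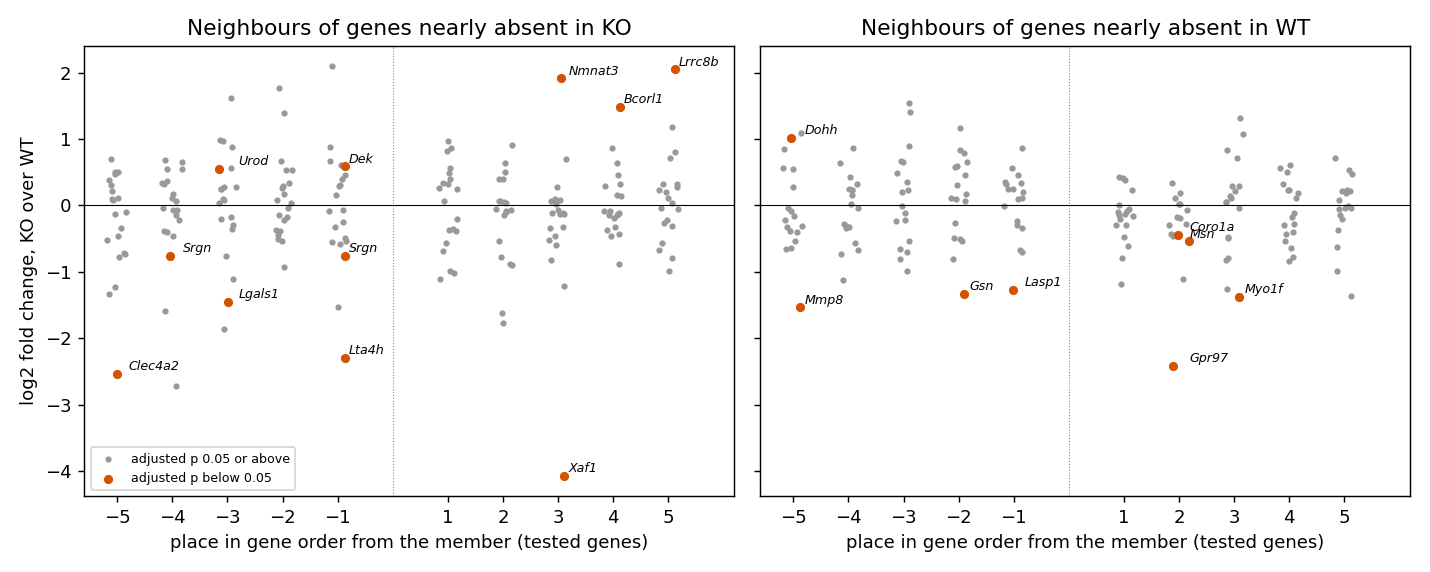
Log2 fold change of KO over WT for tested genes beside the members, by their place in gene order before (negative) and after (positive) the member, in separate panels for the neighbours of genes nearly absent in KO and in WT. Named points passed an adjusted p under 0.05. Most neighbours lie near 0, and among the named points Lta4h, Clec4a2, Xaf1 and Gpr97 lie more than 2 below it.

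Relatives by name were taken as names that share a member's letters before its first digit. For the 11 such stems with 1 to 15 other names in the table there were 35 relatives, of which 16 were tested. None of these 16 was called with edgeR's quasi-likelihood test, DESeq2 or limma-voom, and 1 had an unadjusted edgeR p under 0.05. Over all 7685 genes tested, edgeR called 5.97%, and 1451 had an unadjusted p under 0.05. A difference of the 16 from these shares was not tested. Lyrm4, of iron-sulfur cluster assembly, had 18 and 19 counts in KO, against 3 and 7 in WT (log2 fold change 1.82 ± 0.62, edgeR adjusted p 0.107), the opposite direction to the counts of Lyrm7. This difference did not pass the test.

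Some relatives had counts too low for the fit. Of the other Notch coactivators, Maml1 had 0 and 4 counts in KO, against 4 and 6 in WT, and Maml3 had 7 and 3 in KO and 15 and 7 in WT. Ndrg3 had 59 and 38 counts in KO, against 49 and 54 in WT (log2 fold change -0.16 ± 0.31, edgeR adjusted p 0.851), so the genotypes overlapped. Gna13, another G protein alpha subunit, had 39 and 37 in KO, against 36 and 29 in WT (0.13 ± 0.36, edgeR adjusted p 0.904). Dok3, which holds back signalling in myeloid and B cells, had 73 and 94 in KO, against 57 and 110 in WT (-0.04 ± 0.24, edgeR adjusted p 0.959). Other tested names of the Dok and Gna stems had larger log2 fold changes in size. These were Dok1 (0.71 ± 0.37, edgeR adjusted p 0.314), Dok2 (0.32 ± 0.54, edgeR adjusted p 0.822) and Gna15 (-0.70 ± 0.43, edgeR adjusted p 0.422). None of these tested relatives passed the test.

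Broader stems, with more than 15 other names, join genes of many functions and were only counted. Of 115 tested Slc names, the solute carriers that include Slc25a16 and Slc39a4, 10 were called higher in KO and none lower. Of 88 Fam names 5 were called higher and 1 lower, and of 85 Tmem names 2 were called lower. There was 1 call higher among 82 Zfp and 1 among 12 Klhl names, and 1 call lower among 43 Rnf and 1 among 13 Gpr names, while the 1 tested Prss name was not called. These counts stand beside 2.71% called higher and 3.27% called lower over all genes.

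Promoter windows were read for 27 members from RefSeq on GRCm38.p6, each from 250 bases before to 50 after the gene's start. Those printed here belong to members with no count in either library of the lower genotype. Several members, among them Rnf144b, Tmem184a, Ace and Maml2, have more than 1 promoter in RefSeq, and only 1 window of each was used. Capitals mark the TATA box TATAAA, the CCAAT box CCAAT and the SP/KLF motif GGGCGG on either strand. For the genes nearly absent in KO, C1rl lies at chr6:124492863-124493162 on the + strand, Gcat at chr15:79030624-79030923 on the + strand and Rnf144b at chr13:47122470-47122769 on the + strand.
C1rl: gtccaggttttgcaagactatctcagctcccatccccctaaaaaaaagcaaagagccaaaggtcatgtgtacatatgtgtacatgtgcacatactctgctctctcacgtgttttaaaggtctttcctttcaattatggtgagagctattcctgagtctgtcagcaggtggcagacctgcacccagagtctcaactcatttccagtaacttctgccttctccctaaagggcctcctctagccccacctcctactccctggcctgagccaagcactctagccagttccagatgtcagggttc
Gcat: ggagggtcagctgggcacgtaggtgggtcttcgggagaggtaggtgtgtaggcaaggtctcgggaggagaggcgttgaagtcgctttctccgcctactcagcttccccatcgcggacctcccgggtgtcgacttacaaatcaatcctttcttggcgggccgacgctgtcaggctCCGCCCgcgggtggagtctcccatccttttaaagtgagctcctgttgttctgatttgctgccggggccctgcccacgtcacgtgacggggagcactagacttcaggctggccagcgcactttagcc
Rnf144b: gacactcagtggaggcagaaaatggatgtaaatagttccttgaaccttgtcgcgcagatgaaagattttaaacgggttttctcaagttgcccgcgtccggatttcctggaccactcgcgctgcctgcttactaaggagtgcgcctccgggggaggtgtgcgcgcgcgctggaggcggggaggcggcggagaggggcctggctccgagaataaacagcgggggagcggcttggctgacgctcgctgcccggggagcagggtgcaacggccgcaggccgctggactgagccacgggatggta

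For the genes nearly absent in WT, Tmem184a lies at chr5:139814234-139814533 on the - strand, Ace at chr11:105967698-105967997 on the + strand and Maml2 at chr9:13297708-13298007 on the + strand. Each sequence runs along the strand of its gene.
Tmem184a: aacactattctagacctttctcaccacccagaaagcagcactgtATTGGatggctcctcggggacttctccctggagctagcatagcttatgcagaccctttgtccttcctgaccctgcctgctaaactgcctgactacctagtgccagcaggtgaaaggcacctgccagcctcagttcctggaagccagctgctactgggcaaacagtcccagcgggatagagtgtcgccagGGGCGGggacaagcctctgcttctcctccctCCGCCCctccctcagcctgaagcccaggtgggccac
Ace: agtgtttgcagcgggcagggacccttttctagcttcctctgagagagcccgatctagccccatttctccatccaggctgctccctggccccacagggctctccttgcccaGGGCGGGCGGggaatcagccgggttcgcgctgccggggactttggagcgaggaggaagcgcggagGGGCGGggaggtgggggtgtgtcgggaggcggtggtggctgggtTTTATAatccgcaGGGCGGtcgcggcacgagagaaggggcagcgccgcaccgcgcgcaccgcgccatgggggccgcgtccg
Maml2: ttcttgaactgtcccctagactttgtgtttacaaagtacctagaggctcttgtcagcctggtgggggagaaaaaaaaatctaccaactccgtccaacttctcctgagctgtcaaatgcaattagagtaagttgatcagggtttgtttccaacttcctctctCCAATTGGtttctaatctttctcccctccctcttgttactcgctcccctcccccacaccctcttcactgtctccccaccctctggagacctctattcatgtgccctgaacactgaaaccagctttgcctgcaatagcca

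The 6 windows are unlike each other in these letters. That of Ace holds 1 TATAAA and 4 GGGCGG matches, 2 of which overlap, and that of Tmem184a holds 1 CCAAT and 2 GGGCGG matches. In the Maml2 window 2 CCAAT matches on opposite strands overlap, and the Gcat window has 1 GGGCGG match. Neither C1rl nor Rnf144b has a match to any of the 3 motifs in its window.

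Over all members with a window, base composition was close to that of the genes tested. G and C made up a median of 61.0% of the window in 16 genes nearly absent in KO and 59.0% in 11 nearly absent in WT, against 60.7% in 5970 tested genes. The median number of CG dinucleotides was 21.5 in the first set and 20 in the second, against 21 in tested genes. GGGCGG was found in 8 of 16 windows (50%) and in 8 of 11 (72.7%), against 65.9% of tested genes and 35.9% of all 27025 windows. CCAAT was found in 6 of 16 (37.5%) and 7 of 11 (63.6%), against 39.3% of tested genes. TATAAA was found in 3 of 16 (18.8%) and 2 of 11 (18.2%), against 6.78% of tested genes and 14.2% of all windows. With so few windows these shares are descriptions, a match of letters is not a bound site, and no match says nothing of the factor.

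**Figure D4:**
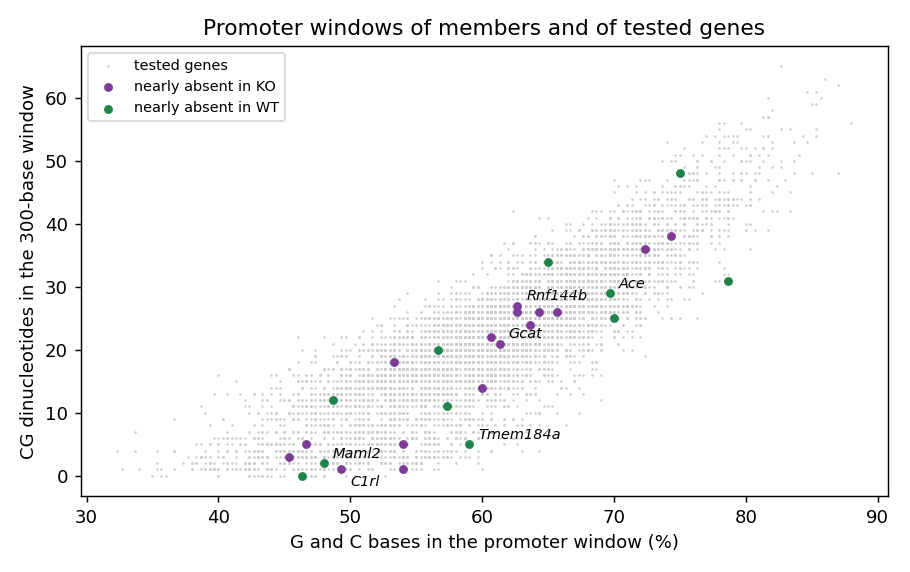
Share of G and C bases (horizontal axis, %) and number of CG dinucleotides (vertical axis) in the 300-base promoter window of each tested gene (grey) and of 27 members (coloured by the genotype in which they are nearly absent). The 6 members with no count in the lower genotype and a printed window are named; members spread over most of the range of tested genes.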

How the data were processed

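RNA of 4 PMN-MDSC libraries, 2 KO and 2 WT, was prepared with TRIzol and an Illumina TruSeq kit, per the labels' protocols. The authors deposited whole-number read counts per gene, without normalization. Bowtie 0.12.2 and the builds mm8 and mm9 are named, per the submitters' processing notes, with no role for either build. No source used here gives the counting program, the strand setting or the treatment of multiply mapping reads. Column names give the genotype but not the sample, so replicate numbers are names only. The 21831 rows held 18751 distinct names. Rows of the 205 repeated names were identical, and each name was kept once.

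CPM (counts scaled to a common library total) and ratios of counts used unscaled totals. Exact Poisson intervals and the floor of 3 counts speak of counting error alone, as reads carried no molecular identifiers. A fold from the floor leaves out the counting error of the genotype that has the gene. Neither measure allows for the choice of the members by the same counts. The fit used edgeR 4.0.16 under R 4.3.3, with scaling by TMM, the filter filterByExpr (minimum count 10, minimum total 15) and a quasi-likelihood test, adjusted by Benjamini-Hochberg over 7685 genes, with a threshold of 0.05. The SE is the log2 fold change over the square root of F. The fit was tested on simulated data. Replicates were not copies of each other: chi-square per gene was 2.58 between the KO and 2.99 between the WT libraries, against 8.56 to 9.37 across genotypes.

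Alternatives were other limits of the rule, RLE or no scaling, no filter, 1 CPM in 2 libraries, DESeq2 1.42.0, limma-voom (limma 3.58.1) and leaving out each library. A lone library was assumed to vary like the others. Names, gene order and transcripts came from GENCODE M21, promoters from RefSeq. The build of the files is not settled, so only promoter windows carry coordinates.

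Some members and a sequence are not reported here. The members, the marker lists and the tests were chosen with earlier results of these data known. Counts were to be named for up to 15 members a direction by summed count, without clone and predicted names, and for up to 2 called neighbours or relatives a member. Other members, the pseudogene parents, overlapping genes, uncalled relatives, genes near the limits and genes of the chromosome windows were named after their values were seen.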

Additional observations from a re-analysis of the deposited data

How the results depend on the processing

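The number of members depends on the limits of the rule. With no count allowed in the lower genotype, 5 names were nearly absent in KO and 3 in WT, and with up to 4 counts 60 and 54. With at least 10 counts in each library of the other genotype there were 6 and 7, and with at least 4 there were 74 and 65. Scaling counts to the mean library size left 9 nearly absent in WT, since a KO count of 6 then falls below 6, and 1 count in each WT library, or 2 in the first, sums to above 2. It gave 29 in KO, 17 of them shared with the 21. Leaving out 1 library in turn gave 68 to 172 names nearly absent in KO and 86 to 204 in WT, as the rule then rests on 3 libraries. Without the exclusion of names there were 25 and 21, and with names starting with a digit also left out 19 and 18, a check added after the data were seen. Calls higher in KO numbered 124 with DESeq2 (208 with edgeR) and 165 to 238 without 1 library, and calls lower in KO 175 with DESeq2 and 216 to 300 without 1 library (251 with edgeR). The median log2 fold change of neighbours of names nearly absent in KO was 0.0383 with 2 genes on each side, and -0.0495 to 0.0362 without 1 library. For neighbours of names nearly absent in WT it was -0.1321 to 0.0014 without 1 library, so neither median has a settled sign. The log2 fold change of Polr2c ran from -0.15 without KO replicate 2 to 0.47 without KO replicate 1; the cause was not tested. Of 270 values of named non-members under alternatives, 231 kept direction and side of the threshold and 38 lost the call. Of 234 differences in CPM of members with TMM or RLE sizes or without 1 library, 225 moved by less than the spread between replicates. No paired analysis was possible because the sample labels share no replicate numbers between genotypes, and the numbers in the column names are tied to no sample, so that a shared number pairs nothing. Depth limits these values: no member had a single count above 33, and a library with no count of a gene allows up to 3.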
